A study of Sus scrofa with 21 samples.

Results

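The genes described here are the transporters that carry amino acids and small peptides into, through and out of cells of the gut wall. They were listed by name from the solute carrier (SLC) families 1, 3, 6, 7, 15, 36, 38 and 43, together with SLC16A10. Of 41 listed genes 40 were found among the 18661 genes of the files, and SLC7A6 was not found under that name. After a filter on low counts 34 were tested, and SLC1A2, SLC1A3, SLC7A2, SLC7A11, SLC38A4 and SLC43A1 were too low. RNA was sequenced from tissue labelled distal small intestine, taken from 21 piglets of the breed Danish Landrace/Yorkshire at an age of 24 to 25 days. All had been followed from birth, the 10 control piglets on a milk replacer and the 11 starch piglets on that replacer with wheat added, which the design text names as starch. Wheat brings plant protein as well as starch, and the labels do not state how much of either was eaten.

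Dietary protein reaches the small intestine as free amino acids and as di- and tripeptides. Enterocytes, the absorptive cells that cover the villi, take both up across the brush border by carriers driven by sodium or protons, split most peptides inside the cell, and release amino acids to the blood through exchangers and uniporters of the basolateral membrane. Several carriers work only as pairs, in which a heavy chain (SLC3A1 or SLC3A2) brings a light chain of family SLC7 to the membrane. Dividing cells of the crypts rely on a different set of carriers, among them SLC7A5 and SLC1A5, which supply leucine and glutamine for growth.

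Control 5, control 8 and starch 3 stood apart from the other 18 piglets on the main axis of variation, which held 64% of the variance of the 500 most variable genes (70.5 to 78.6 against -27.5 to 21.3 units). Their summed absorptive enterocyte markers came to 1703 to 1979 CPM (expected counts scaled to a common library size) against 10160 to 42410, with 14 of 16 listed markers in the files and none at 0. By counts, CDH17 (3661 to 5627 against 3421 to 9083) and KRT20 (5483 to 6894 against 1851 to 13438) lay inside the range of the 18. The other absorptive markers in the files lay below it. The summed epithelial markers came to 3839 to 6389 against 2770 to 6119 CPM, a sum of members that lay on opposite sides. VIL1, which builds microvilli, had 1410 to 1626 counts in the 3 against 6299 to 12737 in the 18, and the keratin gene KRT18 had 4581 to 6988 against 128 to 551. The summed smooth muscle markers were 22090 to 38630 against 6501 to 22220 CPM. The ileal markers FABP6 and SLC10A2, which take up and carry bile acids in the last part of the small intestine, summed to 1.28 to 41.2 CPM in the 3 piglets and to 235 to 5299 CPM in the 18, and neither was at 0 in any piglet. FABP6 had 3 to 314 counts in the 3 against 2018 to 45742. SLC10A2, with 4 to 8 counts against 2 to 269, lay inside the range of the 18. Starch 9 and starch 10 had the highest B-cell scores of all piglets. The labels give 1 tissue name for all piglets and do not say at which site of it each sample was taken, so that site and cell makeup cannot be told apart for the 3.

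Ranked per coding length by FPKM (fragments relative to transcript length and library depth), the carriers of absorption headed the list. The median over 21 piglets was 196 FPKM for the creatine carrier SLC6A8, 178 for the basolateral cationic and neutral amino acid exchanger SLC7A7 and 148 for SLC6A19, the main sodium-driven carrier of neutral amino acids in the brush border. Next came SLC7A9 with 115 and SLC3A2 with 111, followed by the basolateral SLC43A2 with 69.7 and SLC7A8 with 53.8, the glutamate carrier SLC1A1 with 49.5 and the peptide carrier SLC15A1 with 44.6. At the other end of the tested genes lay SLC7A10 with 0.91 and the serotonin carrier SLC6A4 with 0.63. The transporters varied between piglets more than the typical gene. The SD of log2 CPM had a median of 0.98 over the members and 0.45 over all tested genes across 21 piglets, and of 0.67 against 0.41 across the 18, and 30 of 34 members lay above the all-gene median in both. SLC38A10, a carrier of intracellular membranes, was the steadiest (SD of 0.16 in the 18) and SLC7A8 the most variable (1.57).

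**Figure D1:**
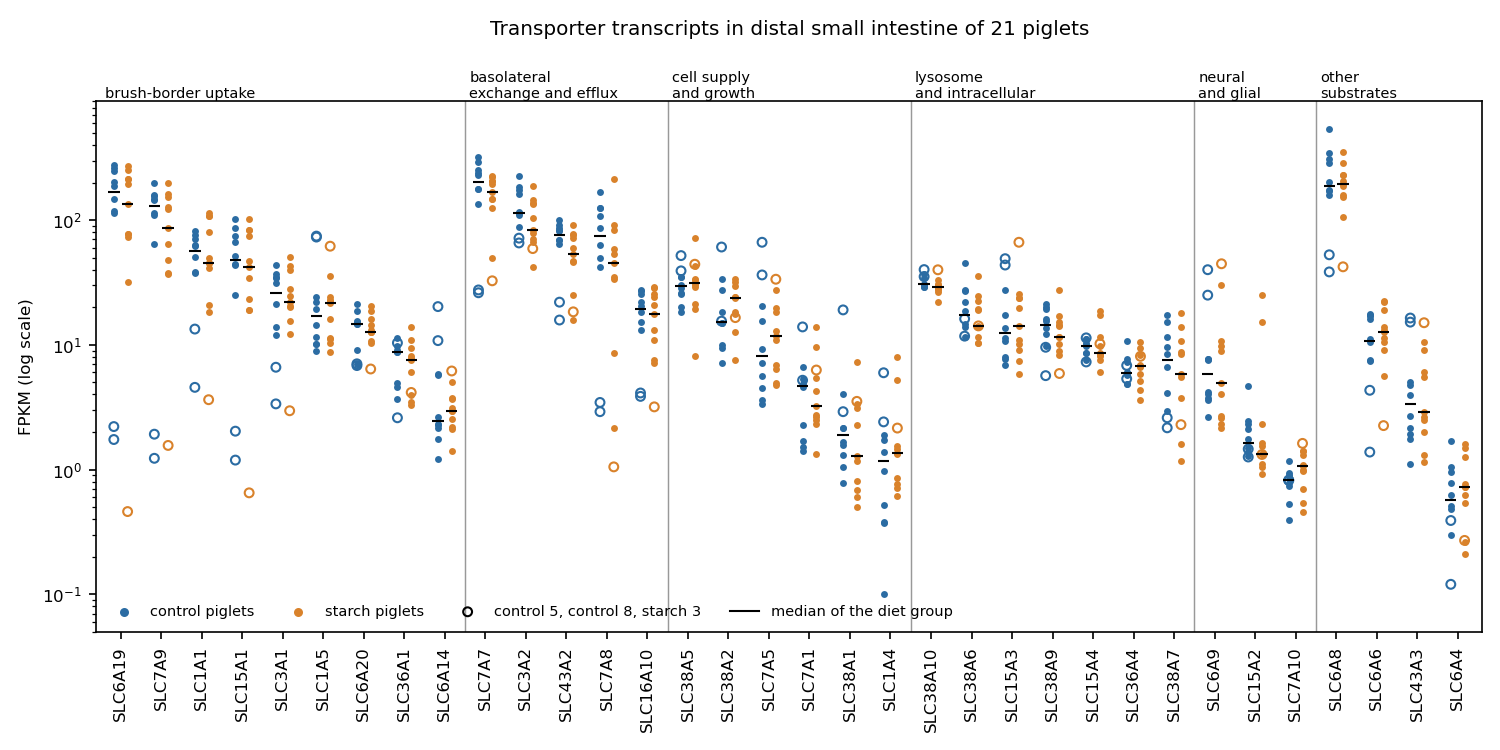
FPKM on a log scale of the 34 tested transporters, ordered by role, with 1 point per piglet (blue control, orange starch), open circles for control 5, control 8 and starch 3, and a line at the median of each diet group. Blue and orange points overlap for all 34 genes, while the open circles lie far below the rest for SLC6A19 (0.46 to 2.21 FPKM) and SLC15A1 (0.65 to 2.03 FPKM) and above them for SLC1A5 (61.8 to 74.5 FPKM).

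The first comparison asked whether transporter transcripts differed between the diets with and without added wheat. None of the 34 tested members passed edgeR's quasi-likelihood test at an adjusted p of 0.05, as was true of all 13127 genes tested (0% called). At an unadjusted p below 0.05 there was 1 member, SLC15A2, where 1.33% of all genes passed. DESeq2 and voom also called 0 members, with 0 at an unadjusted p below 0.05. Of the members 16 were higher and 18 lower in starch piglets, with a median log2 fold change (starch minus control) of -0.02, against 0.00 for all genes, of which 51.1% were higher.

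Brush-border carriers lay on both sides, with 4 of 9 higher, 5 lower and a median log2 fold change of -0.03. SLC15A1, which carries di- and tripeptides with protons, ranged from 1.19 to 101 FPKM in control piglets (median 48.1) and from 0.65 to 101 in starch piglets (median 42.4). The ranges overlapped, the lowest values being those of the 3 piglets that stood apart. Its mean was 107 ± 78.8 CPM (SD, n = 10) in control and 104 ± 74.1 CPM (SD, n = 11) in starch piglets. The log2 fold change was -0.03, with a 95% confidence interval of -1.35 to 1.28. This interval still holds changes of over 2-fold either way. With the smooth muscle score in the model the value was 0.96, and without the 3 piglets that stood apart it was -0.20, both short of the test.

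SLC6A19 ran from 1.74 to 275 FPKM in control piglets (median 167) and from 0.46 to 272 in starch piglets (median 134). The groups overlapped over their whole range, and the log2 fold change was -0.16 (interval -1.62 to 1.31; 0.91 with the smooth muscle score in the model and -0.34 without the 3 piglets). SLC7A9, the light chain of the brush-border cystine and cationic amino acid carrier, spanned 1.23 to 197 FPKM in control (median 130) and 1.56 to 199 in starch piglets (median 87.2). Its heavy chain SLC3A1 spanned 3.36 to 43.9 (median 26.2) and 2.96 to 50.9 (median 21.98). Neither chain differed beyond the spread between piglets (log2 fold changes of -0.20, SE 0.66, and 0.10, SE 0.43). With the smooth muscle score in the model the values were 0.73 and 0.64, and without the 3 piglets they were -0.39 and -0.05, none past the test.

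The glutamate and aspartate carrier SLC1A1 ran from 4.56 to 81.6 FPKM in control (median 56.2) and from 3.63 to 115 in starch piglets (median 45.1), with a log2 fold change of 0.24 (SE 0.48). The proline carrier SLC6A20 had a narrower range, 6.82 to 21.4 (median 14.7) against 6.40 to 20.4 (median 12.7), and a log2 fold change of 0.09 (SE 0.22). The groups overlapped for both genes. For SLC1A1 the value was 0.69 with the smooth muscle score in the model and 0.10 without the 3 piglets, and for SLC6A20 it was 0.17 and 0.00. The glutamine carrier SLC1A5 had its highest values, not its lowest, in the 3 piglets that stood apart. It ran from 8.91 to 74.5 FPKM in control (median 16.9) and from 8.77 to 61.8 in starch piglets (median 21.8), and its log2 fold change of -0.17 became 0.37 without those 3.

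SLC6A14, a carrier of neutral and cationic amino acids, had the smallest p among members that were lower in starch piglets (p = 0.115, adjusted p = 0.9998, edgeR). It spanned 1.22 to 20.3 FPKM in control (median 2.47) and 1.42 to 6.17 in starch piglets (median 2.97), so the medians ran opposite to the fitted log2 fold change of -0.63 (SE 0.38). The highest value was that of control 5, and the log2 fold change without the 3 piglets that stood apart was 0.06.

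All 5 tested basolateral genes had negative log2 fold changes (median -0.34), and none passed the test. The heavy chain SLC3A2 lay between 65.6 and 224 FPKM in control (median 115) and between 42.3 and 188 in starch piglets (median 83.7). Most values of the groups overlapped, with a log2 fold change of -0.36 (SE 0.29, p = 0.227, adjusted p = 0.9998, edgeR). SLC43A2, a uniporter for branched-chain amino acids, ran from 15.8 to 101 (median 76.0) and from 15.8 to 92.0 (median 53.3), with a log2 fold change of -0.34 (SE 0.34). With the smooth muscle score in the model these values were -0.17 for SLC3A2 and -0.03 for SLC43A2, and without the 3 piglets -0.48 and -0.49, none past the test.

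The other 3 basolateral genes overlapped between diets as well. SLC7A7 spanned 26.2 to 320 FPKM in control (median 203) and 32.6 to 225 in starch piglets (median 168), with a log2 fold change of -0.25 (SE 0.41). SLC7A8, an exchanger of neutral amino acids, spanned 2.91 to 168 (median 75.0) and 1.05 to 214 (median 45.2), a log2 fold change of -0.41 (SE 0.71). SLC16A10, which lets aromatic amino acids out of the cell, spanned 3.86 to 27.5 (median 19.4) and 3.18 to 29.3 (median 17.5), a log2 fold change of -0.03 (SE 0.39). With the smooth muscle score in the model all 3 turned positive (0.30, 0.50 and 0.34), and without the 3 piglets they were -0.42, -0.58 and -0.18, none past the test. SLC43A1, the related uniporter, had at most 6 counts in a piglet.

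**Figure D2:**
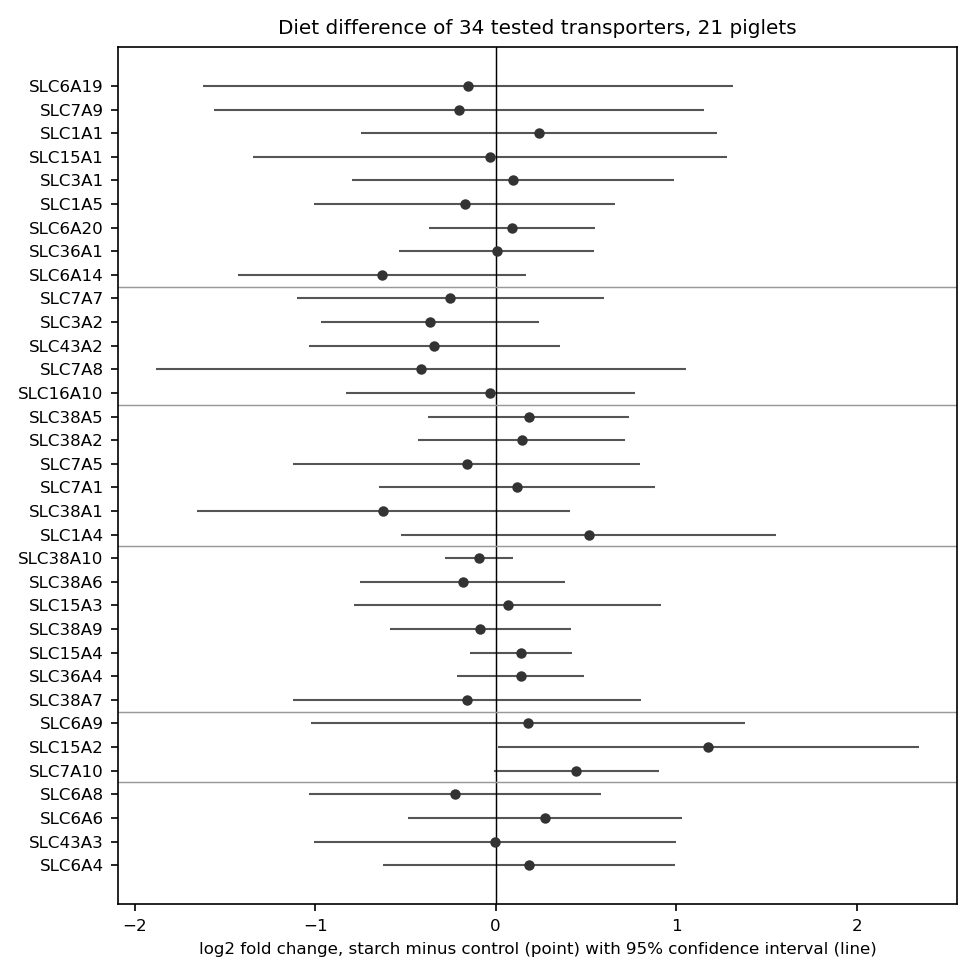
Log2 fold change, starch minus control, of the 34 tested transporters (points) with 95% confidence intervals (lines) from the edgeR fit over 21 piglets, grouped by role from brush border (top) to other substrates. All intervals except that of SLC15A2 (0.01 to 2.34) include 0, and those of SLC6A19 and SLC7A8 are among the widest.

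Among carriers that supply growing cells 4 of 6 tested members were higher in starch piglets (median log2 fold change 0.13). SLC7A5, the leucine carrier, ran from 3.36 to 66.5 FPKM in control (median 8.20) and from 4.77 to 33.6 in starch piglets (median 11.9). Its log2 fold change of -0.16 (SE 0.46) became 0.58 without the 3 piglets that stood apart, which held the 3 highest values. SLC38A1, a sodium-driven glutamine carrier, ran from 0.78 to 19.1 (median 1.91) and from 0.50 to 7.27 (median 1.29). Its log2 fold change of -0.62 (SE 0.50) likewise became 0.18 without them, but -1.07 without starch 9 and starch 10. SLC1A4, a carrier of alanine, serine and cysteine, ran from 0.10 to 5.97 (median 1.18) and from 0.61 to 8.00 (median 1.36). The 2 highest starch values were those of starch 10 and starch 9, and the log2 fold change of 0.52 (SE 0.50) became -0.23 without that pair and 1.22 without the 3 that stood apart. The cystine carrier SLC7A11 had 0 to 4.35 FPKM in control and 0 to 1.14 in starch piglets, with a count in 13 of 21 piglets, and was not tested.

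SLC15A2, the second peptide carrier of the cell membrane, had the smallest p of all members (p = 0.0479, adjusted p = 0.9998, edgeR). Control piglets ranged from 1.26 to 4.70 FPKM (median 1.63) and starch piglets from 0.92 to 25.0 (median 1.34). Starch 10 with 25.0 and starch 9 with 15.3 lay above every other piglet, and the remaining 9 starch piglets had at most 2.32. The log2 fold change was 1.18 (interval 0.01 to 2.34) over all piglets, 0.16 with voom, 0.43 with DESeq2 and -0.43 without starch 9 and starch 10. The B-cell score was 4.27 in starch 10 and 3.77 in starch 9, 2.10 in control 1, which had the highest SLC15A2 among controls, and at most 0.58 in all others.

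The rest of the members with the smallest p per direction differed little. SLC7A10, a carrier of small neutral amino acids, ran from 0.39 to 1.17 FPKM in control (median 0.82) and from 0.46 to 1.62 in starch piglets (median 1.07), with a log2 fold change of 0.45 (SE 0.22, p = 0.0548, adjusted p = 0.9998, edgeR). No more than 20 counts lay behind any of its values. The lysosomal peptide and histidine carrier SLC15A4 ran from 7.29 to 11.4 (median 9.87) and from 6.09 to 18.6 (median 8.61), with a log2 fold change of 0.14 that became -0.04 without starch 9 and starch 10. SLC36A4 ran from 4.86 to 10.7 (median 5.96) and from 3.62 to 10.5 (median 6.76), with a log2 fold change of 0.14 (SE 0.17). For SLC38A10, at 29.3 to 40.1 (median 30.5) and 22.1 to 40.0 (median 29.0), the interval of -0.28 to 0.10 was the narrowest among the members.

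The 3 piglets that stood apart were chosen on the pattern of their whole libraries, to which the transporters belong, so what follows is a description without a test. In bulk tissue, fewer cells of a type and less RNA per cell cannot be told apart. All 3 lay below the range of the other 18 for 10 of the 34 tested members, where this held for 6.08% of all tested genes. They lay above it for 5 of 34, against 9.04% of all tested genes, and also for the untested SLC7A11 and SLC1A3. The 10 below comprised 6 of 9 brush-border carriers (SLC15A1, SLC6A19, SLC1A1, SLC3A1, SLC7A9, SLC6A20), SLC7A7 and SLC16A10 of the basolateral set, and the taurine and creatine carriers SLC6A6 and SLC6A8.

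SLC6A19 was at 0.46 to 2.21 FPKM in the 3 and at 31.9 to 275 in the 18, a ratio of medians of 110. The ratio was 79.6 for SLC7A9, 41.6 for SLC15A1 and 12.3 for SLC1A1, but 7.85 for SLC3A1, 7.27 for SLC7A7 and 2.14 for SLC6A20. The difference was thus uneven within the brush border, and SLC6A20 lay only just outside (6.40 to 7.04 against a lowest value of 7.08). The heavy chain SLC3A2, at 59.1 to 71.7 FPKM, stayed inside the range of the 18 (42.3 to 224).

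Above the range lay SLC1A5 (61.8 to 74.5 FPKM against 8.77 to 35.8), SLC7A5 (33.6 to 66.5 against 3.36 to 27.7) and SLC6A14 (6.17 to 20.3 against 1.22 to 5.82). SLC15A3, a lysosomal peptide carrier known from phagocytes, and the purine base carrier SLC43A3 did likewise, at 43.7 to 66.5 against 5.88 to 27.3 and at 15.04 to 16.4 against 1.11 to 10.5. The summed macrophage markers were 2348 to 3301 CPM in the 3 and 366.5 to 1523 CPM in the 18, with all 8 listed markers in the files and none at 0. In the 3 piglets the summed markers of neurons and glia (86.83 to 116.5 against 36.18 to 80.49 CPM) and of endothelium (260.6 to 310.1 against 125.1 to 230.9 CPM) also lay above the 18. Those of goblet cells were 1617 to 3686 against 424.2 to 1620 CPM, and the crypt scores described next were 0.60 to 0.99 against -1.29 to 0.69. Of these lists 7 of 8, 3 of 4 and 5 of 6 markers were in the files, and GFAP, a glial marker, was the only one at 0, in 1 of the 18. The part of these cell types in the transporter values was not tested. The glycine carrier SLC6A9 had a median 9.77 times higher in the 3 (25.0 to 44.7 against 2.15 to 29.99), and only starch 4 among the 18 reached into their range.

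The second comparison asked which transporters followed the makeup of the tissue from piglet to piglet. It was made over the 18 piglets, with diet in the model. A score is the mean over a list of marker genes of their centred log2 CPM, so that 1 unit stands for a doubling of the average marker. None of the 41 transporters described here is in a list. The absorptive score, from enterocyte genes such as those for apolipoproteins and sucrase, ran from 0.02 to 1.68 in the 18, and the crypt score, from genes of cell division and the crypt base, from -1.29 to 0.69. These 2 scores ran opposite to each other without passing the adjusted test (r = -0.478, Spearman's rho = -0.562, n = 18, permutation p = 0.045 and adjusted p = 0.135 over 6 relations between scores; -0.502 without the 2 piglets farthest from the median absorptive score). The crypt and B-cell scores ran the same way, also without passing it (r = 0.517, rho = 0.457, n = 18, permutation p = 0.0282 and 0.0572, adjusted p = 0.135 and 0.172, and r = 0.502 without the 2 piglets farthest from the median crypt score). Within diets that r was -0.447 in 8 control piglets (exact permutation p = 0.281) and 0.707 in 10 starch piglets (permutation p = 0.0251).

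With the absorptive score 4 members rose, against 1.25% of all genes, and 1 fell, against 0.617%. SLC15A1 rose most, by 1.44 log2 units per unit of score (SE 0.25, adjusted p = 0.0101, edgeR), and it was called in each of the 18 fits that left out 1 piglet and without starch 9 and starch 10. SLC7A7 (0.84, SE 0.20), SLC3A2 (0.96, SE 0.23) and SLC3A1 (0.98, SE 0.25) also rose, and SLC7A5 fell by 1.20 (SE 0.25). The call of SLC7A5 was lost without control 6, control 9, starch 2 or starch 10, with an adjusted p of up to 0.0911. The calls of SLC7A7 and SLC3A2 were both lost without control 3, control 6, control 9, starch 2, starch 9 or starch 10, that of SLC7A7 also without control 2 and that of SLC3A2 also without starch 4. Over all 18 fits that left out 1 piglet, the slopes of SLC7A7 and SLC3A2 stayed within 0.71 to 0.96 and 0.86 to 1.12. SLC3A1 was called in 6 of 18 such fits, those without control 1, control 7, starch 5, starch 7, starch 9 or starch 11, with slopes of 0.88 to 1.09 over all 18. The highest adjusted p of the 3 genes, 0.121, 0.118 and 0.149, came without control 9. Without starch 9 and starch 10 SLC15A1 alone was called, in a fit that called 0.663% of all genes in either direction. SLC7A1, SLC1A4 and SLC43A3 had the next negative slopes by p, at -1.12, -1.54 and -1.01 per unit, and did not pass (adjusted p = 0.066, 0.085 and 0.12, edgeR). SLC6A19 had a slope of 1.14 (SE 0.32, adjusted p = 0.0655, edgeR).

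The crypt score went with transporters of both directions. With it 8 members rose, where 6.7% of all genes did, and 10 fell, where 7.64% did, so 18 of 34 members were called. Those that fell included 4 of 5 basolateral genes, 3 of 9 brush-border carriers (SLC6A19, SLC7A9 and SLC1A1), the intracellular carriers SLC38A6 and SLC38A7, and SLC6A8. Those that rose included 4 of 6 growth carriers (SLC7A5, SLC7A1, SLC1A4 and SLC38A5), SLC1A5, SLC15A3, SLC6A9 and SLC43A3. All 18 were also called, in the same direction, when the 3 piglets that stood apart were included, a fit that called 35.4% of all genes. Without starch 9 and starch 10 the count was 5 that rose and 10 that fell, where 12.7% of all genes were called in either direction.

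**Figure D3:**
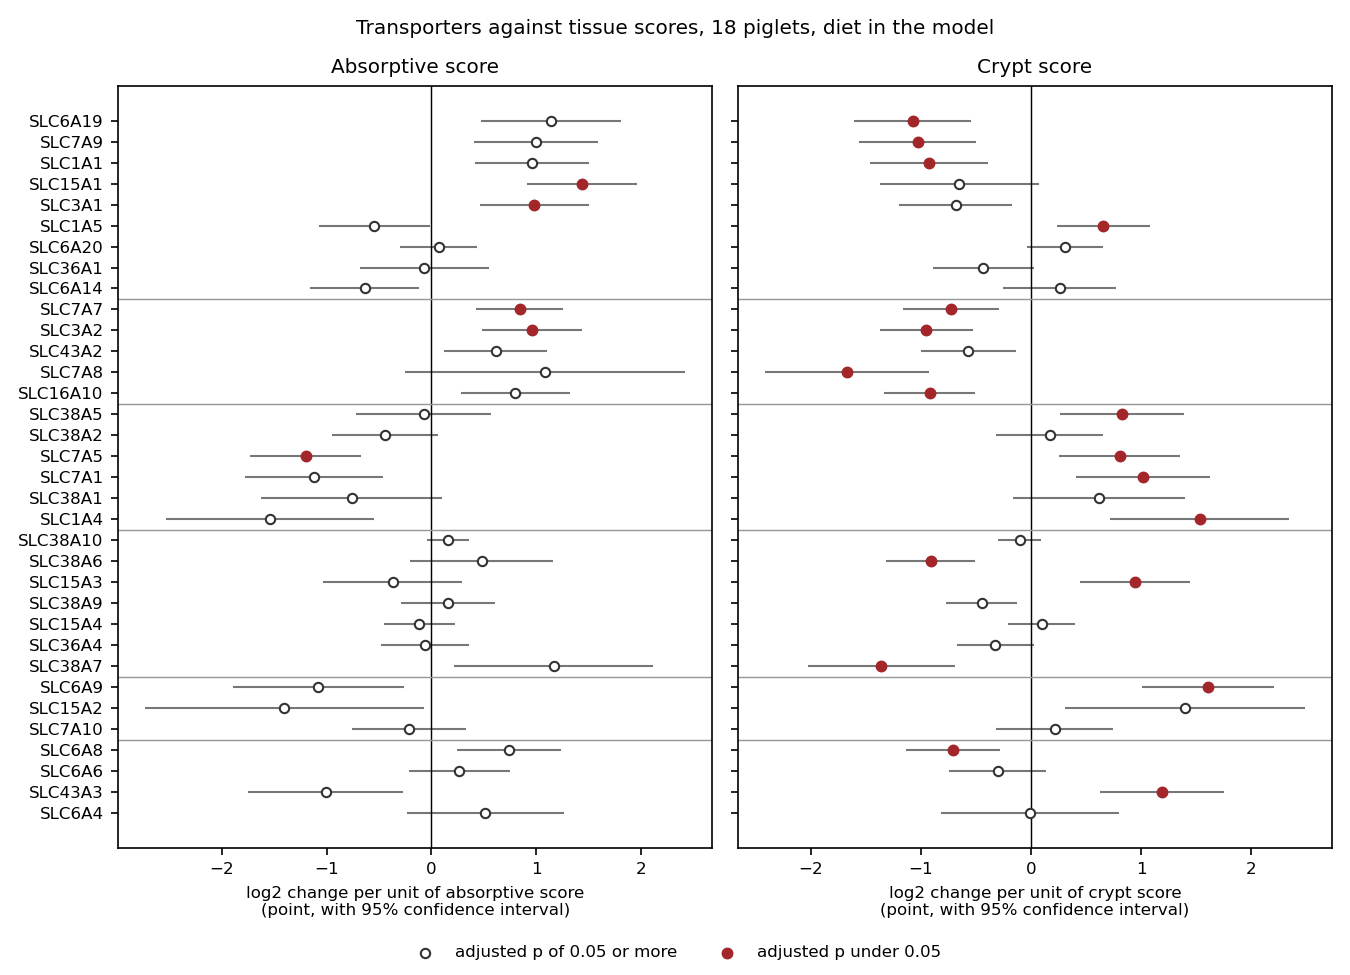
Log2 change of each tested transporter per unit of the absorptive score (left) and the crypt score (right), as points with 95% confidence intervals over 18 piglets with diet in the model, filled where the adjusted p was below 0.05. Basolateral genes lie right of 0 on the left panel and left of 0 on the right panel, and the growth carriers SLC7A5, SLC7A1 and SLC1A4 do the reverse.

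Among those that fell, SLC7A8 had the steepest slope, -1.67 per unit of crypt score (SE 0.36, adjusted p = 0.00428, edgeR). It ran from 2.15 FPKM in starch 4 to 214 in starch 5, the piglets with the highest and the lowest crypt score of the 18. SLC38A7, the lysosomal glutamine exporter, followed with -1.36 (SE 0.32) and a range of 1.17 FPKM in starch 4 to 17.98 in starch 5. SLC6A19 had -1.07 (SE 0.25), SLC7A9 -1.03 (SE 0.25), SLC3A2 -0.95 (SE 0.20), SLC16A10 -0.92 (SE 0.20) and SLC38A6 -0.91 (SE 0.19). These 7 calls were kept whichever piglet was left out, and without starch 9 and starch 10. Those of SLC1A1 (-0.93), SLC7A7 (-0.73) and SLC6A8 (-0.71) were less firm. SLC1A1 was lost without starch 2, starch 4 or starch 5 (-0.78 without starch 4), SLC7A7 without starch 2 or starch 4 (-0.56 without starch 4), and SLC6A8 without starch 2 or starch 5 (-0.78 without starch 5). Without starch 9 and starch 10, SLC1A1 and SLC7A7 were not called (-0.87 and -0.75, adjusted p = 0.0777 and 0.0592, edgeR).

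SLC6A9 rose most, by 1.61 per unit (SE 0.29, adjusted p = 0.00136, edgeR), from 2.15 FPKM in starch 5 to 29.99 in starch 4. SLC43A3 rose by 1.19 (SE 0.27) and SLC15A3 by 0.95 (SE 0.24), and these 3 calls were kept in all 18 fits that left out 1 piglet. SLC43A3 had the larger slope of 2.03 without starch 5. SLC1A4 (1.53, SE 0.39) and SLC7A1 (1.01, SE 0.29) rose too, but without starch 9 and starch 10 their slopes were 0.85 and 0.63 and neither was called (adjusted p = 0.143 and 0.165, edgeR). Both also rose with the B-cell score, which ran with the crypt score in starch piglets, and its part in their crypt slopes was not tested. SLC7A5 rose by 0.81 (SE 0.26) per unit of crypt score, and by 1.76 without starch 5. Without starch 9 and starch 10 its slope was 0.68 and it was not called (adjusted p = 0.138, edgeR). With the B-cell score SLC7A5 was not called (slope 0.175, adjusted p = 0.486, edgeR). Its crypt call was kept in 7 of 18 fits that left out 1 piglet (without control 2, control 4, control 9, control 10, starch 1, starch 5 or starch 6). SLC38A5, a carrier of glutamine and glycine, rose by 0.83 (SE 0.27), but by 0.49 without starch 5 (adjusted p = 0.33, edgeR). Its call was kept in 7 of 18 such fits, without control 6, control 9, control 10, starch 4, starch 8, starch 9 or starch 10. SLC1A5 rose by 0.66 (SE 0.20), with slopes from 0.52 without starch 11 to 1.17 without starch 5, and lost its call without control 1, control 7, starch 2, starch 4 or starch 11. SLC7A1 lost its call without starch 10 as well (slope 0.81).

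**Figure D4:**
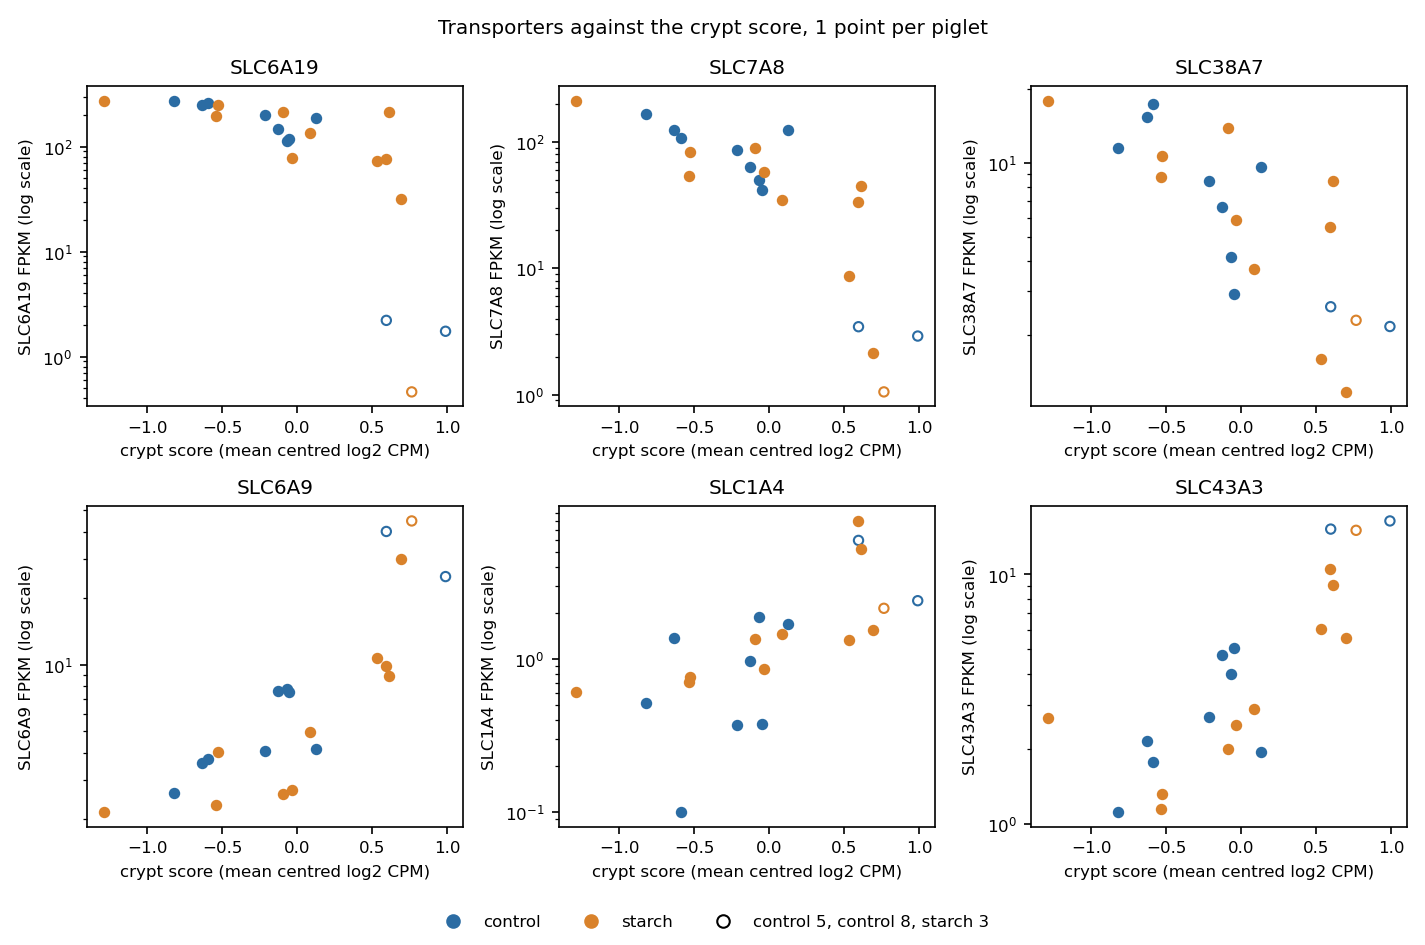
FPKM (log scale) of 6 transporters against the crypt score, 1 point per piglet (blue control, orange starch), with open circles for the 3 piglets outside the fit. SLC6A19, SLC7A8 and SLC38A7 (top) decline and SLC6A9, SLC1A4 and SLC43A3 (bottom) climb with the score, and SLC6A19 is far lower in the open circles (0.46 to 2.21 FPKM) than in other piglets of high crypt score.

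Smooth muscle and B-cell scores bore on few transporters. No member rose with the muscle score, where 0.51% of all genes did, and 1 fell, SLC15A2, where 0.35% did. Its slope of -2.44 (SE 0.51, adjusted p = 0.0284, edgeR) was -0.11 without starch 9 and starch 10, whose muscle scores were -0.50 and -0.77. Its call was also lost without control 1, starch 6, starch 7, starch 8, starch 9 or starch 10 alone, with a slope of -1.82 without starch 10. Without starch 9 and starch 10 together 7 other members fell with the muscle score, where 406 of the 13127 tested genes did. In either direction 4.21% of all genes were called in that fit. SLC15A4 (-0.58), SLC38A9 (-0.70) and SLC3A1 (-1.10) came next among the negative slopes by p, and SLC38A5 (0.84), SLC7A10 (0.57), SLC6A9 (0.89) and SLC1A5 (0.51) among the positive, none past the test.

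With the B-cell score 3 members rose, against 2.66% of all genes, and none fell, against 0.0457%. SLC15A2 rose by 0.62 per unit (SE 0.06, adjusted p = 2.99e-06, edgeR), SLC1A4 by 0.42 (SE 0.09) and SLC7A1 by 0.30 (SE 0.08). Without starch 9 and starch 10 the slope of SLC15A2 was 0.23 (SE 0.13, adjusted p = 0.662, edgeR) and no member was called. That fit called only 0.0457% of all genes in either direction, so the absence of members is not particular to them. SLC1A4 lost its call without starch 10 (0.34), and SLC7A1 kept it in 8 of 18 fits, those without control 1, control 2, control 3, control 4, control 7, control 9, control 10 or starch 4 (slope 0.24 without starch 10). SLC43A3 (0.32) missed the threshold, and SLC16A10 (-0.19), SLC1A1 (-0.20), SLC15A1 (-0.25) and SLC36A4 (-0.10) had the smallest p among negative slopes, none past the test. Of 10 listed B-cell markers 9 were in the files, and 6 passed the count filter and made up the score. Of the 9 in the files 4 were at 0 in some piglets, among them MS4A1, BLK and PAX5, the last in 10.

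The third comparison asked whether the chains that form one carrier varied together. Correlations of log2 CPM were taken over the same 18 piglets for 6 pairs, of which 5 are reported, with permutation tests adjusted over the 6. Tissue scores were not taken out of these correlations, and no other gene pairs were correlated for comparison. SLC3A2 went with 2 of its light chains. The correlation was r = 0.894 with SLC7A7 (rho = 0.924, adjusted permutation p = 3e-05 for both) and r = 0.758 with SLC7A8 (rho = 0.777, adjusted permutation p = 0.00028 and 0.0006). With SLC7A5, its partner in growing cells, it ran the other way, at r = -0.886 (rho = -0.901, adjusted permutation p = 3e-05 for both). The unadjusted p of 1e-05 for SLC7A7 and SLC7A5 is the smallest that the resamples can give. In the same 18 piglets SLC3A2, SLC7A7 and SLC7A8 fell and SLC7A5 rose with the crypt score. The part of tissue makeup in these correlations was not tested.

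All 3 relations held within each diet group and without the 2 piglets farthest from the median of SLC3A2. For SLC7A5 r was -0.926 in 8 control piglets (exact permutation p = 0.00062), -0.832 in 10 starch piglets (permutation p = 0.00373) and -0.861 without starch 4 and control 6. For SLC7A7 the values were 0.931, 0.849 and 0.858, and for SLC7A8 they were 0.754, 0.750 and 0.664. The FPKM of SLC7A5 came to a median of 0.08 of that of SLC3A2 in the 18 piglets (0.01 to 0.43), and to 0.51 to 1.01 in the 3 that stood apart. SLC7A7 gave 1.55 times the FPKM of SLC3A2 in the 18 (1.09 to 2.35) and 0.36 to 0.55 times in the 3.

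In the brush border SLC3A1 and SLC7A9 correlated with r = 0.652 (rho = 0.742, adjusted permutation p = 0.00504 and 0.00093), and with 0.686 without control 4 and control 9. Within diets r was 0.909 in control piglets (n = 8, exact permutation p = 0.00139) and 0.620 in starch piglets (n = 10, permutation p = 0.0598). SLC7A9 had a median of 4.56 times the FPKM of SLC3A1 in the 18 piglets (1.81 to 8.23) and 0.19 to 0.57 times in the 3. SLC6A19 went with CLTRN, a membrane protein that binds it in kidney (r = 0.521, rho = 0.614, adjusted permutation p = 0.0261 and 0.00817). Without starch 4 and starch 10 r was 0.521 (permutation p = 0.037). Within diets r was 0.533 in control and 0.476 in starch piglets, neither passing its permutation test (p = 0.169 and 0.165). CLTRN was low in the 18 piglets, at 1.6 to 12.6 FPKM (median 6.9) against a median of 192 for SLC6A19.

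**Figure D5:**
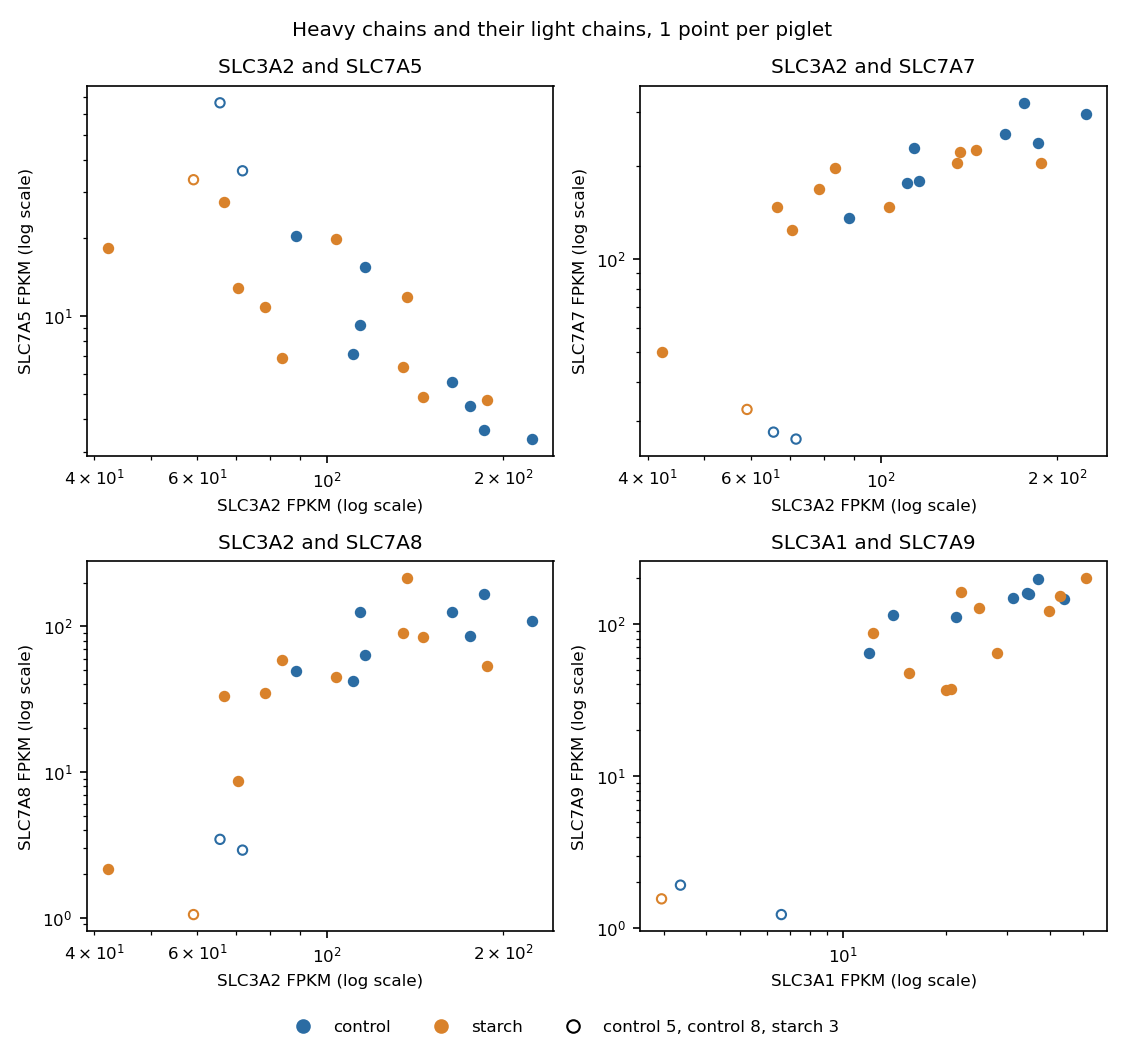
FPKM of heavy chains (horizontal, log scale) and light chains (vertical, log scale) in 21 piglets, blue for control and orange for starch, with open circles for the 3 piglets left out of the correlations. SLC7A7, SLC7A8 and SLC7A9 climb with their heavy chains, and SLC7A5 declines as SLC3A2 climbs (r = -0.886 over 18 piglets).

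Genes that work with the transporters showed no diet call. Of 13 tested partners and brush-border peptidases 5 were higher and 8 lower in starch piglets (median log2 fold change -0.11), with ACE at 0.57, CNDP2 at -0.17, NAALADL1 at -0.26 and PEPD at -0.14. Of 11 tested genes of the amino acid response, which the factor ATF4 switches on when amino acids run short, 3 were higher and 8 lower (median -0.08), with SESN2 at -0.17, ASNS at -0.48, ALDH18A1 at -0.19 and DDIT4 at 0.19. Of 14 tested genes of glutamine, proline and citrulline metabolism 3 were higher and 11 lower (median -0.09), with ARG2 at -0.31, GPT2 at -0.21 and GOT1 at -0.14. None of these lists had a gene at an unadjusted p below 0.05.

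Genes of the same lists were called with tissue scores. Over all genes 7.64% fell and 6.7% rose with the crypt score, and 0.617% fell and 1.25% rose with the absorptive score. With the crypt score 6 of 13 partners and peptidases fell (MEP1B by 1.30, ACE by 1.77, XPNPEP2 by 0.86, MME by 1.18, ENPEP by 0.56, NAALADL1 by 0.76) and none rose. In the amino acid response 4 of 11 rose (ASNS by 1.29, PHGDH by 1.83, MTHFD2 by 0.69, SHMT2 by 0.36) and ALDH18A1 fell by 0.58. In the third list PYCR1, which makes proline, rose by 0.86, and OAT (-0.84), ASL (-0.75) and NAGS (-0.87) fell. With the absorptive score ANPEP (1.00), NAALADL1 (1.01), GOT1 (0.75) and NAGS (0.99) rose and VLDLR fell by 0.81, and with the muscle and B-cell scores none of these genes was called.

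Single piglets marked the ends of the range for many members at once. How often each piglet marked an end over all tested genes was not counted. The counts thus describe the piglets and do not set the transporters apart from other genes. Ranked by CPM among the 18, starch 4 was lowest for 10 of the tested members, among them SLC6A19, SLC7A9, SLC7A7, SLC3A2 and SLC7A8. Its absorptive score of 0.02 was the lowest of the 18, and its value of 21.3 on the main axis of variation was the highest. Starch 11 was lowest for 6, including SLC1A1 and SLC36A1. Control 6 was highest for 6, including SLC15A1, SLC6A19, SLC7A9 and SLC3A2, and lowest for SLC7A5 and SLC1A4. Starch 10 was highest for 7, among them SLC7A5, SLC7A1, SLC1A4, SLC38A1 and SLC15A2, and lowest for SLC15A1. Neighbouring genes had unequal levels. SLC38A2 and SLC38A4 lie side by side on chromosome 5 in the RefSeq pig annotation, where SLC38A2 had a median of 18.3 FPKM and SLC38A4 one of 0.15, and SLC43A1 and SLC43A3, with 1 coding gene between them on chromosome 2, had 0.09 and 2.88.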

How the data were processed

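RNA of 21 piglets was compared between 2 diets. Per the file headers, the authors deposited for each transcript of the Ensembl pig annotation an expected count, which is an estimated count without normalization. The same deposited rows hold FPKM, which relate fragments to transcript length and sequencing depth. HISAT and DESeq2 are named in the submitters' processing notes without version or role, and neither the genome build nor what produced the counts is stated in them. Similar genes can share reads, which such estimates divide, and 0 members had counts identical to another gene. Lengths are coding lengths (at least 99.96% are multiples of 3).

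Expected counts were summed per gene and rounded, and FPKM were summed per gene. Total expected counts were 6719264 to 8610458 per piglet, so that counting error is small for abundant genes and large for genes such as SLC7A10. Genes passing filterByExpr (minimum count 10, minimum total 15) were tested with edgeR 4.0.16 (quasi-likelihood, TMM scaling, R 4.3.3) over the whole table, with Benjamini-Hochberg adjustment and a threshold of 0.05. Scores used log2 CPM with a prior count of 2. Correlations used 100000 resamples, or exact enumeration for groups under 10. Code was first tested on simulated data. The labels give no litter, sex or batch, so p-values measure the spread between these piglets.

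Members, marker lists, pathway lists and the 3 piglets set apart were chosen with earlier results of these data known. Named were 14 members that define the roles, the 5 tested members with the smallest p for diet in each direction, and for each score the 4 with the smallest p in each direction. From each pathway list up to 4 genes with the smallest p for diet were named, and the genes called with a score were named in addition. Alternatives were RLE and upper-quartile scaling, DESeq2 1.42.0, voom with quality weights (limma 3.58.1), limma on log2 FPKM with pseudocounts of 0.1, 0.5 or 1 (genes with at least 1 FPKM in 10 piglets), no filter, a mean of at least 1 CPM, the replicate number as a block, score covariates, and leaving out piglets. Leaving out starch 9 and starch 10 was chosen after seeing the data. Pairs with SLC7A6 and SLC7A11, promoter motifs and sequences were not analysed here, and some genes and results are not reported here. Neighbouring genes were read from the RefSeq table of assembly Sscrofa11.1, in which 39 members matched.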

Additional observations from a re-analysis of the deposited data

Results flagged for a closer look

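Among the 10 control piglets, control 5 had an SLC38A1 level far above the others. The gap in log2 CPM to the next piglet was 0.528 of the whole range of the group, with 19.1 FPKM in control 5, 4.00 in control 9 and 0.78 to 2.91 in the rest. Control 5 is 1 of the 3 piglets that stood apart, and the other 2 had 2.91 and 3.52 FPKM. In none of the other 33 tested members did a control piglet lie so far from the rest. Chance alone marks a piglet in about 1 of 20 such groups.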

How the results depend on the processing

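No alternative called a gene for diet. At an unadjusted p below 0.05 the 174 genes became 524 with no filter and 293 with DESeq2. Both settings took in every gene with a count, more than the 13127 of the main fit, so these counts are on a different base. Over the same 13127 genes there were 381 without the 3 piglets that stood apart and 299 without starch 3. With the muscle and absorptive scores as covariates there were 295 and 264, with voom 268 and without starch 9 and starch 10 there were 106. The median log2 fold change of the members lay between -0.10 (starch 9 and starch 10 left out) and 0.19 (smooth muscle score as covariate), and between -0.10 and 0.04 when piglets were left out in turn. Of 732 alternative values of 21 named members 27 moved by over 1 standard error and 0 changed a call. With a replicate block the median was -0.01 and 0 members were called. The labels do not say whether the replicate numbers pair the piglets. The correlation of same-numbered pairs ran from -0.34 to 0.49, 4 of 10 were over 0.1, and 0 controls correlated best with their own number. A pairing with effects smaller than the differences in tissue makeup could go unseen in these values.

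The score results depended more on which piglets entered. With the absorptive score 5 members were called, but 25 over all 21 piglets (37.2% of all genes) and 1 without starch 9 and starch 10 (0.663%). There were 1 to 8 when piglets were left out in turn, where 0.335% to 3.69% of all genes were called. With the muscle score 1 was called, but 21 over all 21 piglets (24.9% of all genes). With voom there were 0 (0.495%), and without starch 9 and starch 10 there were 7 (4.21%). Leaving out piglets in turn gave 0 to 1, where 0.297% to 0.998% of all genes were called. With the B-cell score 3 were called, but 1 over all 21 piglets (1.85% of all genes) and 5 with voom (3.32%). Without starch 9 and starch 10 there were 0, where 0.0457% of all genes were called. Leaving out piglets in turn gave 1 to 4, where 0.983% to 3.36% of all genes were called. With the crypt score the count of 18 was 26 over all 21 piglets (35.4% of all genes) and 15 without starch 9 and starch 10 (12.7%). Leaving out piglets in turn gave 12 to 19, where 8.48% to 17.7% of all genes were called. The cause of these shifts was not tested. Low counts limit SLC7A10, SLC6A4 and SLC1A4.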
